A study of Mus musculus with 42 samples.

Results

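HOXC6 and HOXC9 binding was compared at day 4 of the differentiation of mouse embryonic stem cells (ESCs) into spinal neurons. The comparison used 4 of the 42 ChIP-seq samples of the series, 2 for each factor. The HOXC6 cells were Ainv15(iFlag.Hoxc6) and the HOXC9 cells Ainv15(iFlag.Hoxc9), which carry a single copy of a Flag-tagged Hox transgene at the HPRT locus under a doxycycline (Dox) promoter. In both lines, embryoid bodies (EBs) received retinoic acid (RA) and smoothened agonist (SAG) from day 0, Dox was added at day 2, and chromatin was precipitated 48 h later with the same Flag antibody (Sigma F1804). Binding was therefore that of an overexpressed, tagged factor, and the cultures hold both motor neurons (MNs) and interneurons. The lists give binding events and no expression values, so the identity of the cells could not be checked against their markers. Each factor has 1 deposited event list, which pools its 2 libraries. An event is a single base position at which the authors' caller placed binding. On chromosomes 1 to 19 and X the HOXC6 list held 69285 events and the HOXC9 list 44020. The 10000 events with the highest estimated ChIP read count in each list were taken as its sites. A site was called shared when the full list of the other factor held an event within 100 bp, and alone otherwise. This gave 7296 shared sites and 2704 alone sites for HOXC6, and 7581 shared sites and 2419 alone sites for HOXC9.

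Hox proteins are homeodomain transcription factors that give cells their position along the rostrocaudal axis. HOXC6 belongs to the central group and acts at brachial levels, where motor neurons innervate the forelimb, whereas HOXC9 belongs to the posterior group and acts at thoracic levels, where it represses brachial Hox genes and limb-innervating fates. Central Hox proteins are known for a preference for the core TAAT, posterior ones for TTTAT, and both can bind DNA together with the TALE homeodomain proteins PBX and MEIS.

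The sequences under the strongest sites are examples and do not stand for their classes, whose motif shares are given below. For each class, 4 sites were taken by a fixed rule: the highest estimated ChIP read count for sites of 1 factor alone, and for shared sites the highest value of the weaker factor after scaling to depth. The windows span 50 bp to either side of the event (for shared sites, the HOXC6 event) and are the forward strand of build GRCm38 (mm10). Capitals mark TAAT and TTTAT and their reverse complements ATTA and ATAAA. The fourth HOXC6-alone site overlaps a UTR and is given without sequence.
The HOXC6-alone sites lie in an intron of Slc44a5 with Lhx8 as the gene with the nearest start, in an intron of Pcdh15, and upstream of Msx1.
Lhx8, chr3:154200616-154200716: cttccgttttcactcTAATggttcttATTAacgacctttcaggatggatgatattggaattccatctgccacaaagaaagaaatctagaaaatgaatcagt
Pcdh15, chr10:73875902-73876002: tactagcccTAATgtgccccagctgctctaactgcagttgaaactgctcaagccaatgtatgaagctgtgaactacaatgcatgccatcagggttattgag
Msx1, chr5:37851688-37851788: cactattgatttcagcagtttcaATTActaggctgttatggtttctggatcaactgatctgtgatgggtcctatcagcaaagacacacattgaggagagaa
The HOXC9-alone sites lie in an intron of Adgrl3, upstream of Ddx1, in an intron of Ntm, and in an intergenic stretch with 4930474N05Rik as the gene with the nearest start.
Adgrl3, chr5:81565661-81565761: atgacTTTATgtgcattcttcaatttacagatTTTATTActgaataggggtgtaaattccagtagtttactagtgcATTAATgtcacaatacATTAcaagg
Ddx1, chr12:13255893-13255993: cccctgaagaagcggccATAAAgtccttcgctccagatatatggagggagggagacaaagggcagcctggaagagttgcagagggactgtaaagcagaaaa
Ntm, chr9:29318852-29318952: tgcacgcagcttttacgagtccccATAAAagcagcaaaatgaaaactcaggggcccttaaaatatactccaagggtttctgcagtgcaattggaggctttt
4930474N05Rik, chr14:36408033-36408133: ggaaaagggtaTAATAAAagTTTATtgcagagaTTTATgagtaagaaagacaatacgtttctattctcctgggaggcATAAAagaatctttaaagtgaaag
The shared sites lie between genes with Gpr84 nearest, in an intron of Hoxc5 with the Hoxc4 start nearest, and in 2 intergenic stretches with Slc35b3 and Gm11487 nearest.
Gpr84, chr15:103305333-103305433: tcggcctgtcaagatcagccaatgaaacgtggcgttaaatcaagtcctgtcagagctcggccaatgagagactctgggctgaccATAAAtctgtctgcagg
Hoxc4, chr15:103014631-103014731: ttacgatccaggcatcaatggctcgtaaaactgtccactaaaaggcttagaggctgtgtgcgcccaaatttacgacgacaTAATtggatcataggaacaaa
Slc35b3, chr13:39524002-39524102: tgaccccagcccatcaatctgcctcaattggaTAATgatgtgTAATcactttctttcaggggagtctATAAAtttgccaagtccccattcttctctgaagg
Gm11487, chr4:73488922-73489022: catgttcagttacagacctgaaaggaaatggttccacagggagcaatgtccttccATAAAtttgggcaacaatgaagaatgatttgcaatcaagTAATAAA
Every one of the 3 HOXC6-alone windows holds TAAT and none holds TTTAT, whereas all 4 HOXC9-alone windows hold TTTAT and 2 of them hold TAAT. Of the 4 shared windows, 3 hold TTTAT and 3 hold TAAT.

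These sites rank among the strongest of their lists. The HOXC6-alone site at Lhx8, which encodes a LIM homeodomain factor of cholinergic neurons, had 2853.0 estimated ChIP reads, or 87.9 reads per 1 M aligned reads (RPM), and its nearest HOXC9 event lay 9310 bp away. The site in Pcdh15, a protocadherin gene, had 86.7 RPM with the nearest HOXC9 event 23348 bp away. The site upstream of Msx1, a homeobox gene, had 83.1 RPM, but a HOXC9 event lay 108 bp away, just outside the 100 bp limit. Sites of this kind are thus alone at the base position and not always alone in the neighbourhood. The site in Tipin (chr9:64304973-64305073), a gene for a replication fork protein, had 80.3 RPM and a HOXC9 event 5602 bp away. Among the HOXC9-alone sites, the one in Adgrl3, which encodes a latrophilin adhesion receptor, had 80.4 RPM with a HOXC6 event 173 bp away. The site near Ddx1, an RNA helicase gene, had 52.8 RPM and a HOXC6 event 777 bp away. The sites at Ntm, a neuronal adhesion gene, and 4930474N05Rik had 51.3 and 40.9 RPM, and the nearest HOXC6 events lay 13565 and 6889 bp away. The strongest shared site, near Gpr84 and downstream of the HoxC cluster, had 195 HOXC6 and 146 HOXC9 RPM. The Hoxc4 site, inside the cluster, followed with 184 and 100.

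Depth and enrichment differed between the 2 factors. The HOXC6 list rests on 32.5 M aligned reads (15.5 and 17.0 M) and the HOXC9 list on 45.6 M (23.8 and 21.8 M). The fraction of reads that the caller assigned to signal was 0.311 and 0.304 in the HOXC6 libraries and 0.140 and 0.188 in the HOXC9 libraries. Both lists were called against 1 control library of 4.72 M reads. Estimated control reads at the sites were low, with a median of 0.3 at HOXC6-shared, 0.8 at HOXC6-alone, 0.5 at HOXC9-shared and 0.7 at HOXC9-alone sites. The library names in the labels start with another prefix for the first HOXC6 library than for the other 3, and the pooled lists give no value within a prefix. No difference below was compared with the spread between differentiations. No event value is given for a single library, and the authors' edgeR comparisons between conditions were not used. Intervals are 95% Wilson intervals for a share and 95% Newcombe intervals for a difference of shares, and cover counting error only. No p-value was computed.

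The first question was how far the strongest sites of the 2 factors coincide in postmitotic neurons. Of the top HOXC6 sites, 73.0% (72.1 to 73.8) had a HOXC9 event within 100 bp, and of the top HOXC9 sites 75.8% (75.0 to 76.6) had a HOXC6 event. Over the full lists the shares were 36.3% of HOXC6 events and 55.0% of HOXC9 events. The HOXC6 list is longer, and with it cut to 44020 events the share of HOXC9 sites that were shared was 67.9%. Within the shared class the positions were close: 38.0% of HOXC6-shared sites had the HOXC9 event within 10 bp and 89.2% within 50 bp. Few sites lay within 10 bp of the limit. Among HOXC6-shared sites 1.17% had the HOXC9 event 91 to 100 bp away, and among HOXC6-alone sites 2.33% had it 101 to 110 bp away. For HOXC9 these shares were 0.923% and 2.07%. More sites depend on the limit over a wider range. Between 101 and 200 bp, 15.8% of HOXC6-alone and 12.3% of HOXC9-alone sites had an event of the other factor. Within 1000 bp, 28.7% of HOXC6-alone and 26.0% of HOXC9-alone sites had one.

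Shared sites were more common among the strongest. In the first 1000 ranks 91.3% (89.4 to 92.9) of HOXC6 sites and 89.9% (87.9 to 91.6) of HOXC9 sites were shared. In ranks 9001 to 10000 the shares were 59.4% (56.3 to 62.4) and 67.5% (64.5 to 70.3). The median HOXC6 site had 12.5 RPM in the shared class (quartiles 8.87 and 20.1) and 9.86 in the alone class (7.84 and 13.6). For HOXC9 the medians were 6.86 (4.97 and 10.9) and 5.72 (4.57 and 8.32). The quartile ranges of the classes overlap. At the edge of the top lists the last site kept and the first left out had 217.0 and 216.9 estimated reads for HOXC6, and 173.9 and 173.8 for HOXC9.

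**Figure D1:**
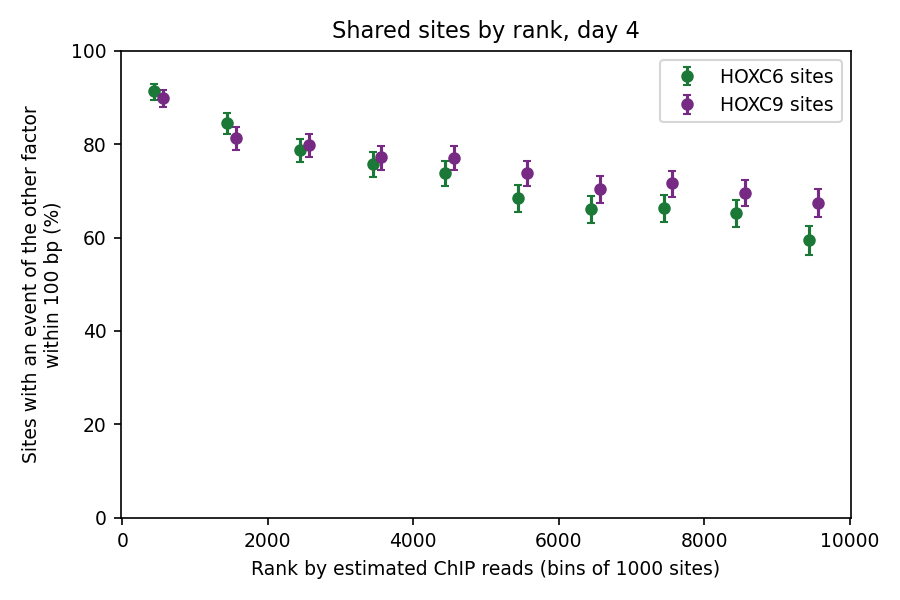
Share of day 4 HOXC6 and HOXC9 sites (y axis, percent) with an event of the other factor within 100 bp, in bins of 1000 ranks by estimated ChIP reads (x axis). Points are pooled lists, bars are 95% Wilson intervals, and the shares fall from 91.3% to 59.4% for HOXC6 and from 89.9% to 67.5% for HOXC9 between the first and the last bin.

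A match between full lists is common at other stages too, and depends on list length. By the same rule at day 3 (24 h of Dox), 80.1% of top HOXC6 sites matched a HOXC9 list of 74067 events, and 44.3% of top HOXC9 sites matched a HOXC6 list of 17898. Between the top 10000 sites alone, where length plays no part, the shares of HOXC6 and HOXC9 sites were 33.6% and 35.1% at day 3, 39.9% and 36.6% at day 4, and 38.1% and 38.9% in unpatterned EBs. The day 4 shares of 73.0% and 75.8% thus include many sites whose partner event lay below the top 10000 of the other list.

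Position relative to genes separated the classes little. All 4 classes lay far from transcription start sites (TSSs): the median distance to the nearest protein-coding TSS was 106 kb for HOXC6-shared, 96.8 kb for HOXC6-alone, 121 kb for HOXC9-shared and 138 kb for HOXC9-alone sites. Within 1 kb of a TSS lay 1.18% of HOXC6-shared and 1.15% of HOXC6-alone sites, a difference (alone minus shared) of -0.0323 percentage points (-0.467 to 0.494). At HOXC9-shared and HOXC9-alone sites it was 0.923% and 0.496% (-0.427 points, -0.749 to -0.0114), which rests on 12 HOXC9-alone sites. All 4 values were below those of the full lists, 3.02% for HOXC6 and 3.01% for HOXC9. The 2 alone classes differed from each other over longer distances. More than 500 kb from any protein-coding gene start lay 13.9% of HOXC9-alone and 9.69% of HOXC6-alone sites, 4.24 points (2.47 to 6.03) more. In the full HOXC9 and HOXC6 lists the shares were 11.8% and 9.60%. Sites between 1 and 50 kb made up 25.4% of HOXC9-alone and 32.4% of HOXC6-alone sites (-7.01 points, -9.47 to -4.53). By annotation, 56.4% of HOXC9-alone and 54.0% of HOXC6-alone sites were intergenic (2.47 points, -0.257 to 5.19), against 53.6% and 51.9% of the full lists. HOXC9-alone sites also had the lowest GC content, with a median of 39.3% within 100 bp against 42.8% at HOXC6-alone sites.

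The DNA under the sites separated the classes by the posterior Hox core. The motifs were searched on both strands within 50 bp: TAAT, TTTAT, the composite PBX and Hox motifs TGATTTAT (which contains TTTAT) and TGATTAAT (which contains TAAT), the MEIS motif TGACAG, and the E-boxes CAGCTG and CATCTG that proneural basic helix-loop-helix factors bind. TTTAT was present at 33.7% (31.9 to 35.5) of HOXC6-alone, 50.4% (49.3 to 51.6) of HOXC6-shared, 64.4% (63.3 to 65.5) of HOXC9-shared and 78.3% (76.6 to 79.9) of HOXC9-alone sites. In windows of the same length 1 kb to either side the shares were 33.2%, 33.1%, 34.0% and 35.9%. HOXC6-alone sites thus held TTTAT as often as the DNA beside them, and HOXC9-alone sites exceeded it by 42.4 points. Over the full lists 44.5% of HOXC6 and 63.1% of HOXC9 events held the motif. The difference between alone and shared sites was -16.7 points (-18.8 to -14.6) for HOXC6 and 13.9 points (11.9 to 15.8) for HOXC9, and between the 2 alone classes it was 44.6 points (42.1 to 47.0). GC content also differs between these classes, and its part in the motif shares beyond the flanking windows was not tested.

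TAAT did not separate the classes in this way. It was found at 78.5% of HOXC6-shared, 78.0% of HOXC6-alone, 77.1% of HOXC9-shared and 74.5% of HOXC9-alone sites, against 75.0% and 73.6% of the full HOXC6 and HOXC9 lists. Its flanking shares were 51.5%, 51.8%, 53.3% and 54.1%, so all 4 classes exceeded them by 20.5 to 27.0 points. HOXC9-alone sites had TAAT less often than HOXC9-shared sites, by -2.55 points (-4.56 to -0.604), while the HOXC6 difference of -0.463 points had an interval that included 0 (-2.31 to 1.33). The cores were also counted jointly. Whether the joint shares go beyond the single shares was not tested. TAAT without TTTAT marked 50.6% of HOXC6-alone sites and 15.8% of HOXC9-alone sites, whereas both cores stood together at 27.4% and 58.7%. TTTAT without TAAT was found at 6.29% and 19.6%, and neither core at 15.7% and 5.91%. The shared classes lay in between, with TAAT without TTTAT at 39.2% of HOXC6-shared and 27.6% of HOXC9-shared sites. Over the full HOXC6 and HOXC9 lists TAAT without TTTAT was at 40.5% and 26.1%, and both cores at 34.5% and 47.4%.

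Composite and partner motifs followed other orders. TGATTTAT was more common at shared sites, with 5.83% of HOXC6-shared against 2.44% of HOXC6-alone (-3.38 points, -4.15 to -2.55) and 7.00% of HOXC9-shared against 4.42% of HOXC9-alone sites (-2.58 points, -3.54 to -1.53). The full lists held it at 4.70% (HOXC6) and 6.42% (HOXC9), and flanking windows at 0.713% to 0.785%. The central composite TGATTAAT was rare throughout, at 1.07% to 1.97% of the classes against 1.69% and 1.74% of the full lists. CATCTG ran opposite to TTTAT. It was present at 20.5% of HOXC6-alone, 15.6% of HOXC6-shared, 10.8% of HOXC9-shared and 7.90% of HOXC9-alone sites, with flanking shares of 6.97% to 7.84% and full lists at 15.6% and 10.8%. HOXC9-alone sites thus held this E-box 0.930 points more often than the DNA beside them, and HOXC6-alone sites 12.6 points more often. CAGCTG showed the same order, at 11.4%, 9.98%, 7.44% and 4.55%, against 9.66% and 7.39% of the full lists. The MEIS motif TGACAG was at 12.7% of both HOXC6 classes, 12.5% of HOXC9-shared and 10.0% of HOXC9-alone sites (-2.49 points, -3.85 to -1.03), against 12.3% and 11.8% of the full lists.

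**Figure D2:**
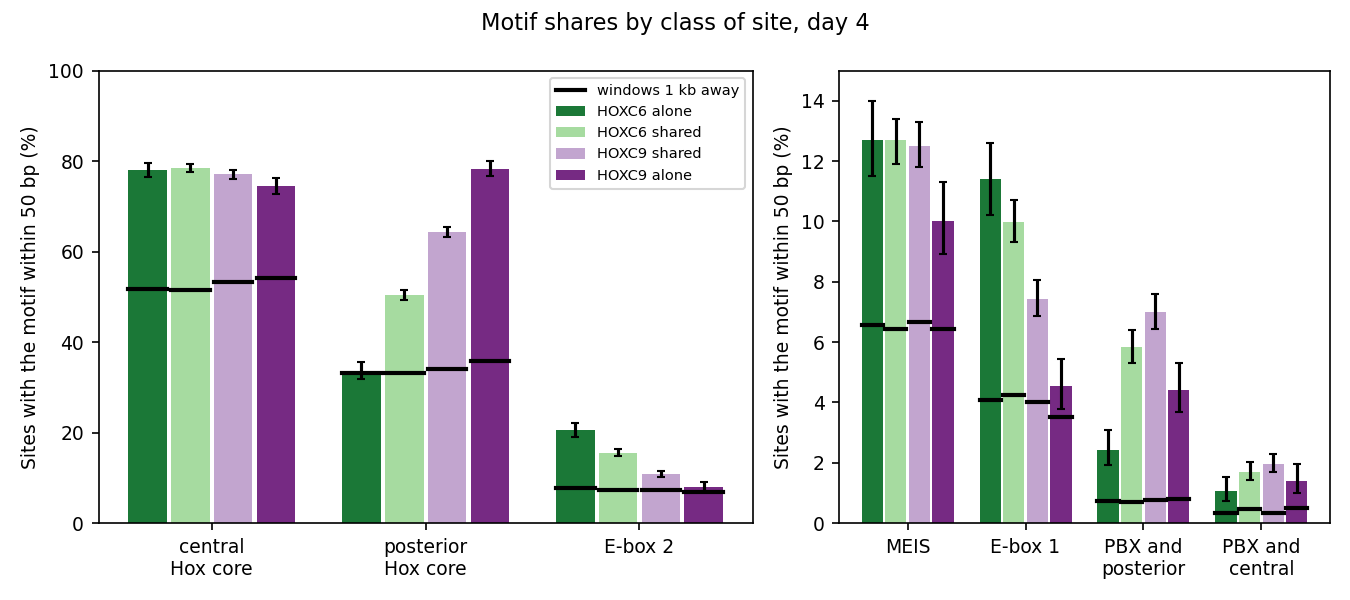
Share of sites with each motif within 50 bp (y axes, percent, different scales) in the 4 classes of day 4 sites. Bars with 95% Wilson intervals are the sites and black lines the windows 1 kb away; the labels stand for TAAT (central Hox core), TTTAT (posterior Hox core), CATCTG (E-box 2), TGACAG (MEIS), CAGCTG (E-box 1), TGATTTAT (PBX and posterior) and TGATTAAT (PBX and central), and TTTAT rises from 33.7% at HOXC6-alone to 78.3% at HOXC9-alone sites while CATCTG falls from 20.5% to 7.90%.

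Since alone sites are weaker on average, the motif contrasts were repeated within ranges of rank. For TTTAT the HOXC6 difference was -12.4, -18.9, -15.6 and -19.9 points in ranks 1 to 2500, 2501 to 5000, 5001 to 7500 and 7501 to 10000, and every interval lay below 0. The HOXC9 difference was 10.07, 16.2, 15.9 and 16.2 points, and every interval lay above 0. In the first range, 333 HOXC6-alone sites held TTTAT at 36.0% and 395 HOXC9-alone sites at 80.8%. The TAAT difference of HOXC9 was -9.10 points (-14.1 to -4.45) in ranks 1 to 2500, and the intervals of the other 3 ranges included 0. CATCTG was more frequent at HOXC6-alone than at HOXC6-shared sites in each range, by 2.00 to 7.95 points, although the interval of the first range included 0 (-2.02 to 6.68).

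At sites bound by both factors the relative occupancy was measured as a ratio. Events of the 2 lists were paired when each was the nearest event of the other within 100 bp, which gave 23887 pairs in the full lists and 3485 pairs in which both events were among the top sites. The ratio is HOXC9 over HOXC6 in estimated reads per aligned read, on a log2 scale. In the 3485 pairs the median was -0.90 (quartiles -1.60 and -0.24), and over all 23887 pairs it was -0.47. The 3485 pairs were picked by the same read counts, at cut-offs of 6.69 HOXC6 and 3.82 HOXC9 RPM. The part of these unequal cut-offs in the ratios was not tested. HOXC6 was at least 2-fold higher in 1602 pairs (46.0%) and HOXC9 in 130 (3.73%), against 35.3% and 14.8% of all pairs. These counts depend on scaling. The larger signal fraction of the HOXC6 libraries shifts every ratio, and dividing by reads in signal instead of all aligned reads adds 0.92 to each log2 ratio. The median of the 3485 pairs was then 0.02, with HOXC6 at least 2-fold higher in 626 pairs (18.0%) and HOXC9 in 587 (16.8%). HOXC9 was thus the higher factor in 7.51% of pairs past 2-fold per aligned read and in 48.4% per read in signal. Over all 23887 pairs the balance turned over, since HOXC9 was the higher factor in 29.5% of pairs past 2-fold per aligned read and in 67.0% per read in signal. The median per read in signal was then 0.45, with HOXC9 at least 2-fold higher in 8078 pairs (33.8%) and HOXC6 in 3978 (16.7%). Which factor was higher overall depends on this choice, and the order of the sites does not.

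Among the 3485 pairs with both events in the top lists, the most extreme ratios lay near genes of varied function; pairs outside them reached larger ratios in both directions. Within these pairs HOXC9 was highest relative to HOXC6 near Rims4, a presynaptic gene of the RIM family (chr2:163954094-163954194, 35.5 kb upstream), with 50.7 HOXC9 and 7.06 HOXC6 RPM and a log2 ratio of 2.85. A site 61.7 kb downstream of the start of Gnat3, a taste transducin gene (chr5:18024187-18024287), had 56.7 and 7.89 RPM, and one near Retnlg, a resistin-like gene (chr16:48899994-48900094), had 68.7 and 9.57. Both had a log2 ratio of 2.84. At the other end, the strongest HOXC6 site of all lay 61.0 kb upstream of Lhfpl2, a tetraspan protein gene (chr13:93996715-93996815), with 236 HOXC6 and 5.41 HOXC9 RPM, a log2 ratio of -5.45. Its window held neither TAAT nor TTTAT, and its event position was the same in both lists. Near Tgfbr1, the gene of the type I TGF-β receptor (chr4:47324099-47324199), HOXC6 had 137 and HOXC9 3.97 RPM (log2 ratio -5.10). In Atg16l2, an autophagy-related gene (chr7:101263711-101263811), the values were 128 and 5.03 (log2 ratio -4.67).

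When the 3485 pairs were ordered by ratio and divided into 5 groups of 697, the motifs followed the ratio as they followed the classes. TTTAT was present in 49.4%, 53.5%, 58.0%, 62.1% and 69.0% of pairs from the HOXC6-high to the HOXC9-high end, a difference of 19.7 points (14.5 to 24.6) between the ends. TAAT differed by -1.72 points (-6.02 to 2.58), from 79.5% to 77.8%. CATCTG fell from 16.9% to 10.0% (-6.89 points, -10.5 to -3.31). MEIS events at day 3 differed with the ratio as well. Those of iHoxc6 cells were at 68.3% of pairs at the HOXC6-high end and 43.2% at the HOXC9-high end (-25.1 points, -30.0 to -20.0), and those of iHoxc9 cells at 69.0% and 77.9% (8.90 points, 4.26 to 13.5). These groups were not used to define the alone classes, but come from the same 2 lists.

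**Figure D3:**
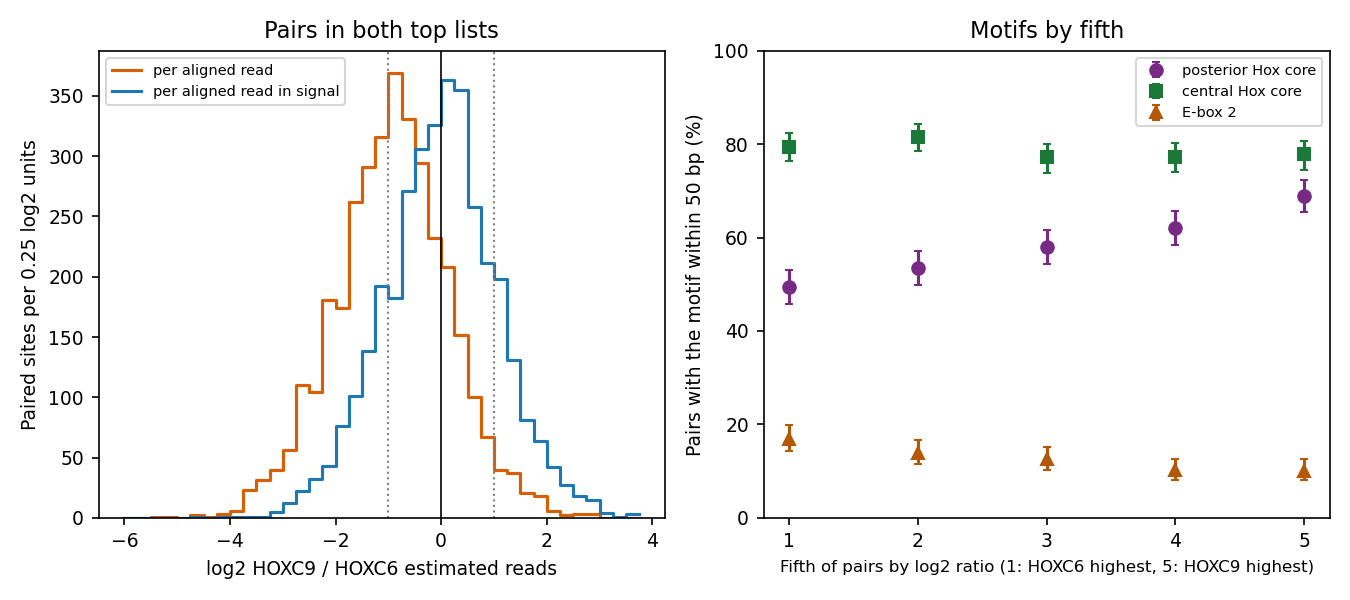
Left, number of the 3485 paired sites (y axis) by log2 ratio of HOXC9 to HOXC6 estimated reads (x axis, bins of 0.25), per aligned read and per aligned read in signal; dotted lines mark 2-fold and the medians are -0.90 and 0.02. Right, share of pairs with each motif (y axis, percent, 95% Wilson intervals) in 5 groups of 697 pairs ordered by ratio, with TTTAT (posterior Hox core) rising from 49.4% to 69.0%, TAAT (central Hox core) staying between 77.2% and 81.6% and CATCTG (E-box 2) falling from 16.9% to 10.0%.

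The other lists of the series showed which sites were also bound at other stages and by other factors, with libraries that played no part in forming the classes. Some of these lists pool differently tagged lines: 1 of 3 day 3 HOXC10 libraries is from a V5-tagged line, and 1 of 2 libraries each of HOXA9, HOXD9 and HOXC13 is from an HA-tagged line, with other antibodies. The part of the tag was not tested. Each factor bound its own day 4 sites at day 3 in both classes. HOXC6 events at day 3 were at 86.3% of HOXC6-shared and 86.1% of HOXC6-alone sites (-0.222 points, -1.78 to 1.27), against 25.9% of the full HOXC6 list. HOXC9 events at day 3 were at 98.3% of HOXC9-shared and 96.4% of HOXC9-alone sites, against 81.8% of the full HOXC9 list. The other factor at day 3 differed between the classes, which were formed with that factor's day 4 list. Since sites of a factor recur between the days, this contrast follows in part from the definition. HOXC6 events at day 3 were at 50.5% of HOXC9-shared sites and at 19 of 2419 HOXC9-alone sites (0.785%, 0.503 to 1.22), against 20.5% of the full HOXC9 list. HOXC9 events at day 3 were at 95.1% of HOXC6-shared and 51.7% of HOXC6-alone sites, against 48.2% of the full HOXC6 list. The day 3 lists differ in length, with 17898 HOXC6 and 74067 HOXC9 events. With the HOXC9 list cut to 17898 events, it matched 66.9% of HOXC6-shared and 12.8% of HOXC6-alone sites, which is still more than the 0.785% above. The same cut left 81.5% of HOXC9-shared and 74.7% of HOXC9-alone sites with their own factor at day 3, a difference of -6.85 points against -1.89 with the full list. In all, 1175 HOXC6-alone sites (43.5%) and 2296 HOXC9-alone sites (94.9%) had no event of the other factor at day 3, day 4 or in EBs. Among these, TTTAT was at 32.7% and 79.0%. The 2 counts of sites rest on lists of unequal length. HOXC6-alone sites were compared with 74067 HOXC9 events at day 3 and 128322 in EBs. HOXC9-alone sites were compared with 17898 and 44678 HOXC6 events. The counts were not repeated at equal length.

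The central factor HOXC8, assayed at day 3, had its lowest share at HOXC9-alone sites, as HOXC6 did at day 3. Its events were at 97.8% of HOXC6-shared, 93.4% of HOXC6-alone, 83.3% of HOXC9-shared and 13.0% (11.7 to 14.4) of HOXC9-alone sites, against 53.7% and 42.2% of the full HOXC6 and HOXC9 lists. The posterior factors differed among themselves. HOXA9 events at day 3 were at 77.0% of HOXC9-alone and 53.5% of HOXC6-alone sites (23.5 points, 21.0 to 26.0), whereas HOXD9 events were at 38.7% and 55.7% (-16.9 points, -19.6 to -14.2). Full-list shares were 66.0% and 48.7% for HOXA9 and 49.8% and 44.8% for HOXD9, each HOXC9 first. HOXC13 events were at 64.2% of HOXC9-alone and 9.87% of HOXC6-alone sites, with full-list shares of 39.7% and 18.9%, and at 54.2% of HOXC9-shared sites. HOXC13 was the only one of these day 3 lists of another factor with a higher share at HOXC9-alone than at HOXC9-shared sites (10.0 points, 7.81 to 12.2). The lists hold 44591 HOXC8, 62885 HOXA9, 56361 HOXD9 and 115819 HOXC13 events, so shares of different factors cannot be ranked. Against the top 10000 events only, HOXC8 was at 77.5% of HOXC6-shared, 61.3% of HOXC6-alone, 47.1% of HOXC9-shared and 0.951% of HOXC9-alone sites. At HOXC9-alone and HOXC6-alone sites HOXA9 was then at 23.0% and 11.8%, HOXD9 at 8.10% and 17.5%, and HOXC13 at 25.8% and 0.962%.

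HOXC10, the posterior factor of the lumbar, limb-innervating level, was matched mainly at shared sites. At day 4 its events were at 67.2% of HOXC6-shared and 16.9% of HOXC6-alone sites (-50.2 points, -52.0 to -48.4), and at 68.2% of HOXC9-shared and 30.6% of HOXC9-alone sites (-37.6 points, -39.6 to -35.4). The full lists matched at 21.3% (HOXC6) and 31.9% (HOXC9), so the HOXC9-alone sites lay near their background. The day 4 lists of HOXC6, HOXC9 and HOXC10 were called against the same control library. The day 4 HOXC10 list held 22024 events at a signal fraction of 0.051, against 0.308 for HOXC6 and 0.163 for HOXC9. Its matches were not split by the rank of the sites. The day 3 HOXC10 list, called against another control, gave 76.0% and 40.4% of the HOXC6 classes and 71.2% and 32.3% of the HOXC9 classes, against 29.3% and 36.6% of the full lists. In unpatterned EBs, HOXC9 events were at 71.5% of HOXC9-alone, 65.5% of HOXC9-shared, 50.4% of HOXC6-shared and 15.7% of HOXC6-alone sites (full lists 45.5% for HOXC9 and 24.4% for HOXC6). HOXC6 events in EBs were at 28.0% of HOXC6-shared and 13.0% of HOXC6-alone sites (full list 12.3%), and at 23.1% and 4.42% of the HOXC9 classes (full list 11.9%). HOXC9-alone sites were thus matched in EBs more often than HOXC9-shared sites (5.97 points, 3.85 to 8.04), and HOXC6-alone sites less often than HOXC6-shared sites by their own factor (-14.9 points, -16.5 to -13.3) and close to the full HOXC6 list. Against the top 10000 EB events only, these differences were 2.13 and -5.67 points.

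MEIS events differed between the alone classes according to the cell line. The 3 MEIS lists come from day 3 of V5-tagged lines, Ainv15(iHoxc6.V5), Ainv15(iHoxc9.V5) and Ainv15(iHoxc10.V5), and not from the Flag-tagged lines of the day 4 lists. They rest on 1 library each, and hold 8154 (iHoxc6), 22703 (iHoxc9) and 12928 (iHoxc10) events. At HOXC9-alone sites, MEIS was listed at 29.7% in iHoxc9, 3.80% in iHoxc10 and 0.827% in iHoxc6 cells. At HOXC6-alone sites it was listed at 28.7% in iHoxc6, 24.6% in iHoxc10 and 20.2% in iHoxc9 cells. Full-list shares for iHoxc9, iHoxc10 and iHoxc6 cells were 28.9%, 14.3% and 10.7% for HOXC9, and 20.8%, 14.3% and 11.4% for HOXC6. MEIS of iHoxc9 cells thus lay near its full-list share in both alone classes. Site by site, 700 HOXC9-alone sites had MEIS in iHoxc9 and not in iHoxc6 cells and 1 had the reverse. Of the HOXC6-alone sites, 393 had MEIS in iHoxc6 only and 163 in iHoxc9 only. Among HOXC9-shared sites 2505 had MEIS in iHoxc9 only and 205 in iHoxc6 only. Among HOXC6-shared sites these counts were 1308 and 592. The counts use the full MEIS lists of unequal length, and were not made over all events. With all lists at 8154 events, MEIS of iHoxc9 cells was at 14.4% of HOXC9-alone and 7.58% of HOXC6-alone sites. Shared sites had MEIS most often, at 58.0% (HOXC6-shared) and 60.1% (HOXC9-shared) in iHoxc9 and 48.2% and 29.7% in iHoxc6 cells. PBX events, from 2 lists of 1164 and 848 events with signal fractions of 0.009 and 0.008, were too few to compare: the iHoxc9 list matched 33 HOXC6-shared, 1 HOXC6-alone, 30 HOXC9-shared and 0 HOXC9-alone sites, where 0 of 2419 allows a share of up to 0.124% by a limit of 3 counts (Wilson upper limit 0.159%). The full lists matched it at 0.261% and 0.756%. The iHoxc10 list matched 14, 0, 7 and 0 sites, with full-list shares of 0.178% and 0.570%.

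**Figure D4:**
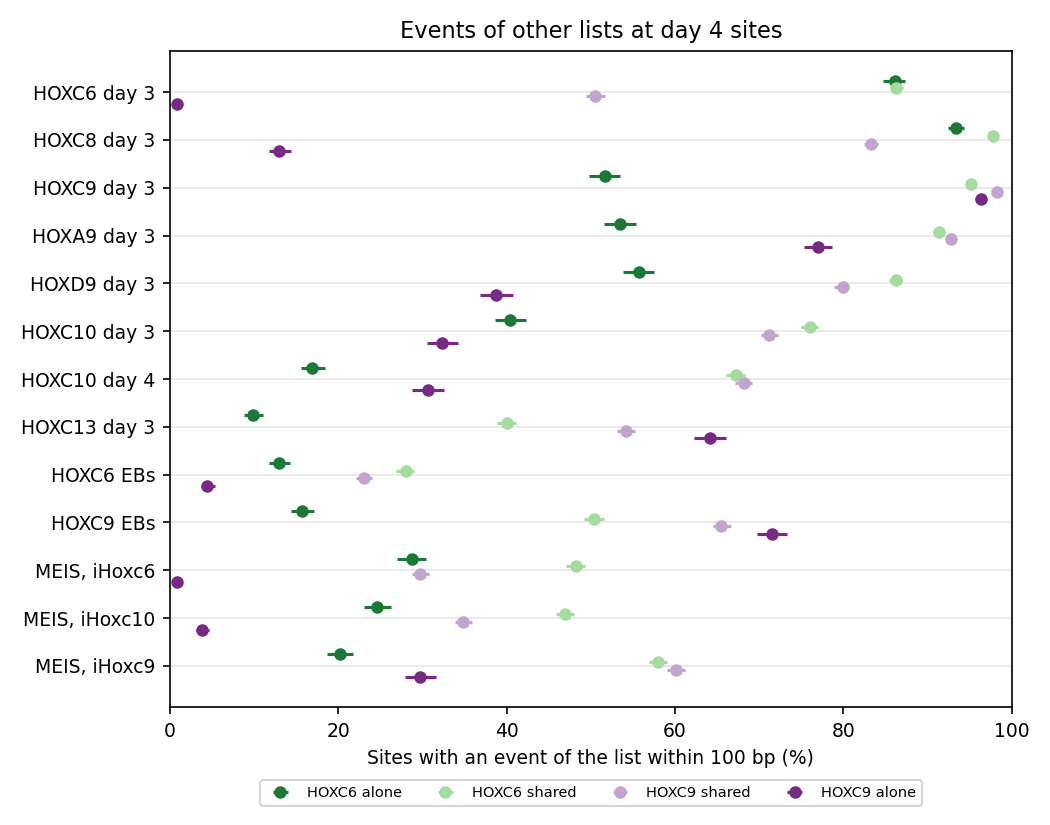
Share of day 4 sites in each class (x axis, percent) with an event of 13 other lists within 100 bp (rows), as points with 95% Wilson intervals. HOXC9-alone sites stand at 0.785% for HOXC6 day 3 and 0.827% for MEIS in iHoxc6 cells, HOXC6-alone sites at 93.4% for HOXC8 day 3, and the shared classes lie highest for HOXC10 at both days.

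Each site was assigned to the protein-coding gene with the nearest TSS. Sites of the alone classes were spread over 1793 genes for HOXC6 (8.24% of 21755) and 1543 for HOXC9 (7.09%), and shared sites over 3108 (HOXC6) and 3110 (HOXC9) genes, 14.3% in either case. Most genes with an alone site also had a shared one: 71.4% of the HOXC6-alone genes and 74.6% of the HOXC9-alone genes did. The 2 alone classes had 625 genes in common, 34.9% of the HOXC6-alone and 40.5% of the HOXC9-alone genes. Zfp608, a zinc finger gene, led every class, with 44 HOXC6-shared, 18 HOXC6-alone, 41 HOXC9-shared and 12 HOXC9-alone sites.

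The other genes with most sites include regulators and guidance molecules of neurons. Nr2f1, the gene of the nuclear receptor COUP-TFI (chr13:78188973-78199757), had 32 HOXC6-shared and 23 HOXC9-shared sites, with 6 HOXC6-alone and 0 HOXC9-alone sites. Meis1, which encodes a Hox cofactor, had 22 HOXC6-shared, 8 HOXC6-alone, 18 HOXC9-shared and 2 HOXC9-alone sites. Nkx6-1, a homeodomain gene of ventral progenitors and MNs, had 20, 7, 16 and 2 sites in the same order. Galnt17, a glycosyltransferase gene, had 20, 6, 16 and 3. The HOXC6-alone class was led after Zfp608 by Arrdc3 (11 sites), the Slit receptor gene Robo2 (9), the ephrin gene Efna5 (8) and the adhesion gene Chl1 (8). These genes had 3, 2, 1 and 4 HOXC9-alone sites. The HOXC9-alone class was led after Zfp608 by Flrt2 (11 sites), a gene for an adhesion and guidance protein (chr12:95692226-95785215), Sel1l (10), a gene of protein degradation at the endoplasmic reticulum, Lrmda (9) and Auts2 (8). Flrt2 had 0 HOXC6-alone sites, and Sel1l, Lrmda and Auts2 had 2, 2 and 5. Robo1 and Robo2 followed Zfp608 in the HOXC9-shared class with 26 and 25 sites, before Nr2f1 and Lrmda with 23 and 22.

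Gene lists that fit spinal neurons were then counted by class. Counts are genes with at least 1 site of the class, and are to be read against the 8.24% (HOXC6-alone) and 7.09% (HOXC9-alone) of all protein-coding genes. Shared sites were also more frequent than the 14.3% of all genes in each list but muscle and liver for HOXC6, and the spacing of genes was not adjusted for. The counts depend on how sites are assigned. Counted within 50 kb of gene starts, 6.00% of all genes had a HOXC6-alone and 3.91% a HOXC9-alone site, and the lists below had such sites at 6 and 0 genes of MN identity, 3 and 3 column and pool markers, 3 and 1 interneuron factors, 3 and 1 pan-neuronal factors, 1 and 0 Notch pathway genes, 6 and 2 Slit, Robo and netrin genes, 2 and 1 Eph receptors and ephrins, 1 and 1 type II cadherins, 3 and 2 TALE genes, and 1 and 2 retinoid pathway genes. By nearest TSS, 8 of 13 genes of MN identity had a HOXC6-alone and 3 a HOXC9-alone site. Isl1, the LIM homeodomain gene of postmitotic MNs, had 9 HOXC6-shared, 2 HOXC6-alone, 6 HOXC9-shared and 1 HOXC9-alone sites, and Olig2, the MN progenitor factor, had 6, 2, 2 and 0. Of 16 markers of motor columns and pools, 8 and 5 had sites. They include Nkx6-1 and Foxp1, which specifies limb-innervating MNs and had 14, 1, 13 and 0 sites. Of 14 interneuron factors, 4 had a HOXC6-alone and none a HOXC9-alone site, although 9 had a HOXC9-shared site. Sim1 and Lmx1b, factors of V3 and dorsal interneurons, had 3 and 3 HOXC6-shared and 6 and 4 HOXC9-shared sites and no alone site. Of 13 pan-neuronal factors, 7 and 2 had alone sites, with Ebf1 at 3 HOXC6-alone and 3 HOXC9-alone sites and Elavl4 at 3 and 0. Of 15 Notch pathway genes, 4 and 1 had alone sites. The ligand genes Jag1 and Dll1 had 1 and 0 HOXC6-alone and 1 and 0 HOXC9-alone sites.

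Guidance and adhesion genes had sites of both alone classes. Of 14 Slit, Robo and netrin genes, 10 had a HOXC6-alone and 7 a HOXC9-alone site. Robo2 had 9 and 2, and Robo1 5 and 3. Of 22 Eph receptors and ephrins, 8 and 7 had alone sites. Efna5 had 8 HOXC6-alone and 1 HOXC9-alone sites, whereas Epha7 had 1 and 7. Of 12 type II cadherins, the adhesion molecules that sort motor pools, 6 and 7 had alone sites. Cdh6 had 3 of each kind, and Cdh11 had 3 and 1. Of 9 TALE cofactor genes 5 and 5 had alone sites, with Meis1 at 8 and 2 and Meis2 at 3 and 4. Of 5 GDNF receptor genes, 1 and 0 had alone sites. Gfra1 and Ret had 3 and 2 HOXC6-shared and 5 and 1 HOXC9-shared sites.

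The Hox genes themselves more often had a HOXC9-alone than a HOXC6-alone site. Of 39 Hox genes, 3 had a HOXC6-alone and 7 a HOXC9-alone site, and 10 and 11 had shared sites of the HOXC6 and HOXC9 lists. Hoxc4 had 11 HOXC6-shared, 2 HOXC6-alone, 13 HOXC9-shared and 1 HOXC9-alone sites. Hox genes lie close together, so a site goes to 1 of several neighbours. Counted within 50 kb of gene starts, 12 Hox genes had a HOXC6-alone and 34 a HOXC9-alone site, which are few sites counted at many neighbours. Of 15 retinoid pathway genes 1 and 3 had alone sites, with Rarb, a retinoic acid receptor gene, at 0 and 1 and Cyp26b1, an RA-degrading enzyme gene, at 3 and 0. Among lists of other cell types, 1 and 2 of 9 pluripotency genes had alone sites. Sox2, which neural progenitors also express, had 12 HOXC6-shared and 14 HOXC9-shared sites and no alone site, and Esrrb had 4 and 1 shared sites. Of 9 muscle and liver genes 1 and 0 had alone sites. Ttn had 1 HOXC6-shared, 1 HOXC6-alone and 1 HOXC9-shared site, and Alb 1 HOXC9-shared site.

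**Figure D5:**
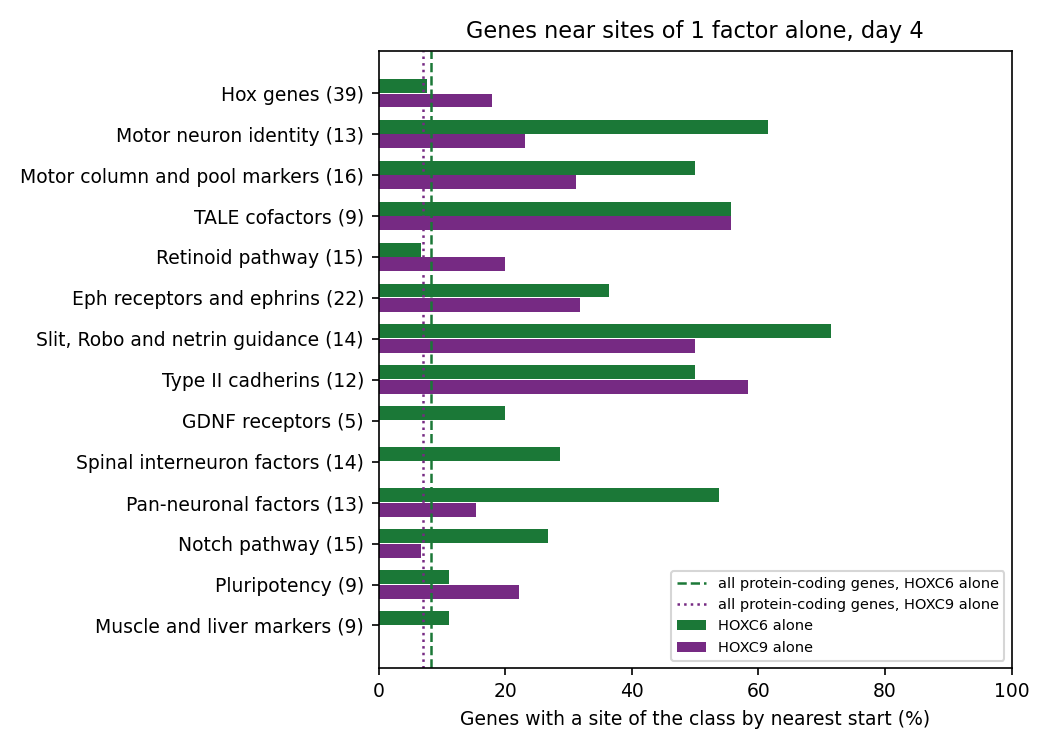
Share of genes of each list (rows, number of genes in brackets) with at least 1 HOXC6-alone or HOXC9-alone site by nearest start (x axis, percent). Vertical lines mark all protein-coding genes, 8.24% for HOXC6-alone and 7.09% for HOXC9-alone sites; 8 of 13 MN identity genes had a HOXC6-alone and 3 a HOXC9-alone site, and 3 and 7 of 39 Hox genes.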

How the data were processed

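ChIP-seq events of 4 samples, grouped by their labels, were compared, and 15 further event lists of the series were matched to them. The authors aligned reads to mm10 with Bowtie 1.0.1, keeping unique best hits, and called events with MultiGPS over the pooled replicates of a condition. The submitters' processing notes also name Picard 2.8.2 and edgeR 3.22.5. The deposited event lists give estimated counts of ChIP and control reads per event, and a score, the log2 q-value, which was used only to re-rank sites. Columns of the authors' edgeR comparisons between conditions (log2 fold changes and q-values) were not used.

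Sites were ranked by estimated count, which was divided by the aligned reads of the list (RPM) where the factors were compared. Motifs were read from GRCm38, where all 69285 and 44020 deposited sequences lay within 250 bp of their events. Genes are those of GENCODE mouse release M21, and each site went to the nearest protein-coding TSS. Python 3.11.15 with numpy 2.4.6, pandas 2.3.3 and pysam 0.24.0 was used. The event matching, motif search and Newcombe interval were checked with planted overlaps, ratios and motifs and with simulated counts. The pairing of events, gene assignment and annotation were not checked in this way. Shares have Wilson and differences Newcombe 95% intervals, which cover counting error only, and total depth was 32.5 and 45.6 M reads. Alternatives in ranking, list length, distance, windows, scaling and gene assignment were tried.

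The members, motifs and gene lists were chosen with earlier results of these data known. Named were the 4 strongest sites of each class, the 5 genes with most sites of each class, the 3 most extreme ratios in each direction and the 2 members of each gene list with most sites. A further gene that this rule names is not reported here.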

Additional observations from a re-analysis of the deposited data

Results flagged for a closer look

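The day 4 lists also held events outside chromosomes 1 to 19 and X, which no comparison used. There were 12 such events in the HOXC6 list and 4 in the HOXC9 list. They were noted because either number is above the 3 counts that a count of 0 allows.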

How the results depend on the processing

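The share of shared sites moved with the definitions. For top HOXC6 and HOXC9 sites it was 80.8% and 81.1% with the top 5000, 61.7% and 67.9% with the top 20000, 65.1% and 68.6% at 50 bp, 77.2% and 78.8% at 200 bp, and 39.9% and 36.6% against the top 10000 of the other list, and 67.9% for HOXC9 at equal list length. Ranked by q-value they were 73.5% and 75.5%. The TTTAT difference kept its direction in every alternative. It was -12.4, -18.9 and -19.9 points for HOXC6 in ranks 1 to 2500, 2501 to 5000 and 7501 to 10000. For HOXC9 it was 10.07, 16.2, 15.9 and 16.2 points in the 4 ranges and 10.3 in 100 bp windows. The TAAT difference was 1.68 points for HOXC6 with alone sites defined over all stages and 2.83 in ranks 5001 to 7500. For HOXC9 it was -4.69 with the top 5000, -9.10 in ranks 1 to 2500, and 0.353, a change of sign, in ranks 5001 to 7500. The TSS difference of HOXC9 was -1.23 points with all transcript starts and -1.26 at 5 kb. The HOXC10 difference of the HOXC6 classes was -43.3 points with the top 10000 HOXC10 events and -45.8 at 200 bp. That of MEIS in iHoxc9 cells was -32.0 and -29.6 points for HOXC6, and -26.8 and -25.1 for HOXC9, with the top 10000 events and at equal length. Scaling by signal fraction turned the median log2 ratio from -0.90 to 0.02 and gave 587 pairs with HOXC9 and 626 with HOXC6 past 2-fold. At 4-fold there were 14 and 559, and with control reads subtracted 131 and 1601. Genes with a HOXC9-alone site numbered 851 by the 50 kb rule. The TGATTAAT difference of HOXC6 was 0.00170 points with the top 5000, against -0.641. The causes were not tested. Within-rank ranges, stage-wide and 1 kb definitions of alone, lists at equal length for MEIS and for HOXC9 at day 3, 200 bp for HOXC10, and 2-fold counts under other scalings were added after seeing the data.

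No paired analysis was possible because each deposited list pools its replicates and no test was run. Leaving out a replicate could not be run for the same reason. A HOXC10, MEIS or HOX event missing from a shorter or less enriched list does not show absence of binding.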
